A study of Mus musculus with 2 samples.

Results

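The 7 genes described here belong to the aldo-keto reductase superfamily and were followed in the mouse adrenal gland. They are Akr1b7, Akr1b3, Akr1b8 and Akr1b10 of the aldose reductase subfamily, and Akr1a1, Akr1e1 and Akr7a5. They were chosen by gene symbol and made up 7 of 55536 annotated genes, with 25 of 141767 annotated transcripts. All 7 were detected in every library, and each had a mean of at least 100 counts. The libraries were total RNA-seq, with ribosomal RNA reduced, of adrenal gland tissue from female mice aged 2 months of the hybrid strain B6CASTF1/J, which has a C57BL/6J and a CAST parent. There was 1 group with 2 libraries, labelled as biological replicates 1 and 2 and called animal 1 and animal 2 here, each from 300 ng of RNA with ERCC spike-in RNA. No treatment, transgene or control group was labelled. The labels conflict on whether the libraries came from different animals, and the replicate numbers were followed. Counts were made on mm10, which is C57BL/6J sequence, and the effect of CAST alleles on the counts was not tested.

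Aldo-keto reductases are mostly single-chain enzymes that use NADPH to reduce aldehydes and ketones to alcohols. Aldose reductase (Akr1b3) turns glucose into sorbitol, which sorbitol dehydrogenase then oxidises to fructose, and its gene is known to respond to osmotic stress. In the adrenal cortex Akr1b7 is known as a corticotropin-responsive gene whose enzyme reduces isocaproaldehyde, the side product released when Cyp11a1 cleaves the cholesterol side chain, and it has also been described as a prostaglandin F synthase. Akr1b8 and Akr1b10 are close relatives that reduce reactive aldehydes such as those from lipid peroxidation. Akr1a1, aldehyde reductase, makes gulonate from glucuronate on the path to ascorbate. Akr1e1 reduces anhydrofructose, and Akr7a5 reduces succinic semialdehyde and dialdehydes.

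The 4 Akr1b genes lie side by side on chromosome 6, and their sequences are shown because reads from such close copies have to be told apart. The coding sequences of their main transcripts were each 951 bases long (316 codons before the stop) and aligned without a gap. Akr1b7 was identical to Akr1b10 at 89.3% of coding bases, to Akr1b8 at 84.9% and to Akr1b3 at 72.1%. The first 60 coding bases follow, from the GENCODE M21 transcripts, 5′ to 3′, with capitals where a base differs from Akr1b7.
Akr1b7: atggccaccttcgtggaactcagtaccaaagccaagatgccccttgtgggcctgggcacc
Akr1b8: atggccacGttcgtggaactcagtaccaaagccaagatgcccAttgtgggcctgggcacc
Akr1b10: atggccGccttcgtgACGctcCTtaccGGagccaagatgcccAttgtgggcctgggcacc
Akr1b3: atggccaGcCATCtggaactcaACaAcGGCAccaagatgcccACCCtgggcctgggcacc
Akr1b8 differed from Akr1b7 at 2 of these bases, Akr1b10 at 9 and Akr1b3 at 16. The longest run that any pair shared was one of 80 bases in Akr1b8 and Akr1b10, starting at coding base 475 in both.
Akr1b8 and Akr1b10: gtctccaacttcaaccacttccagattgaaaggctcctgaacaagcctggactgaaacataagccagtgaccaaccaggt
The longest run shared by Akr1b7 and Akr1b10 had 59 bases and that shared by Akr1b7 and Akr1b3 had 23. Outside the Akr1b genes, coding identity to Akr1b7 was 59.9% for Akr1e1, 57.5% for Akr1a1 and 44.1% for Akr7a5.

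The sequences upstream of Akr1b7, Akr1b10 and Akr1b8 are shown because these neighbours on the plus strand differed in level. They come from RefSeq (GRCm38.p6, plus strand), which gave a promoter for 6 of the 7 genes and none for Akr1b3. They run from 250 bases before the RefSeq start to the base before the GENCODE start. Capitals mark AAGGTCA, a site of nuclear receptors that bind as monomers, here on the minus strand and so printed as the reverse complement, TGACCTT.
Akr1b7, chr6:34412112-34412333: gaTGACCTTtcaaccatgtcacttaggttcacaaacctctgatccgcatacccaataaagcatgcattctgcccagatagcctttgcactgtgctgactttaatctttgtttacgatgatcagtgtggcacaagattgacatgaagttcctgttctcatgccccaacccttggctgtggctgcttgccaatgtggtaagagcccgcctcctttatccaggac
Akr1b10, chr6:34383997-34384217: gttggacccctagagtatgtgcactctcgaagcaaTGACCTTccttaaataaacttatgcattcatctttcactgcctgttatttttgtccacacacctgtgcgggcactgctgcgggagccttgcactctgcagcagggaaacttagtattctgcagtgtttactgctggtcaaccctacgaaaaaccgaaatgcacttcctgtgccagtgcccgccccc
Akr1b8, chr6:34353896-34354118: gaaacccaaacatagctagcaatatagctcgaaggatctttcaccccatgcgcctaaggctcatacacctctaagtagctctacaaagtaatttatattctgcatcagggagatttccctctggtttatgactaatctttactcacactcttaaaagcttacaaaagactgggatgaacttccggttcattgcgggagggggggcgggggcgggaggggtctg
The 7 letters AAGGTCA were present in Akr1b7, from -248 to -242 relative to the RefSeq start, and in Akr1b10, from -215 to -209. They were not in the windows of Akr1b8, Akr1a1, Akr1e1 or Akr7a5, and 4.72% of 32851 promoter windows of 300 bases held them on either strand. The shorter AGGTCA, which lies within that site, was also in Akr7a5 and in 16.3% of all windows. GGGCGG, a GC box, was present in Akr1b8, Akr1b10 and Akr7a5 and in 35.7% of windows, and CCAAT was in Akr1b7 and Akr1e1 and in 37.4%. TGACGTCA, the cAMP response element, was in none of the 6 windows and in 1.79% of all, and TGACNNNGC, the core of the antioxidant response element, was in none and in 12.4%. TATAAA was in Akr1b8 and in 13.6%. The upstream stretches of the 3 neighbours were identical at 40.9% to 45.4% of aligned positions. These matches describe letters only.

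The libraries held 34517566 and 36234838 expected counts, of which 34203629 and 35959444 lay on annotated genes. A floor of 3 counts on genes, set for a count of 0, thus came to 0.0877 and 0.0834 CPM. Intervals and floors cover counting error only. With 1 group of 2 libraries no test between groups was possible, and 2 values against 2 could not go below p = 0.333 in a two-sided exact permutation test. Genes listed as markers of the zona fasciculata, the layer of the cortex that makes corticosterone, were abundant in both libraries. Star stood at 4122 and 4634 TPM, Hsd3b1 at 3691 and 4620 TPM and Cyp11b1 at 1906 and 2489 TPM. Markers of adjoining tissue differed between the animals. Brown adipocyte markers were at least 25% higher in animal 2 for 6 of 6 genes, with a summed level of 653 TPM in animal 1 and 1270 TPM in animal 2, led by Cox8b (258 and 520 TPM) and Ucp1 (196 and 429 TPM). Kidney markers had a sum of 20.2 TPM in animal 1 but 0.46 TPM in animal 2. In animal 2, 6 of 8 (Kap, Slc34a1, Umod, Slc12a1, Slc22a6 and Nphs1) were at 0 counts. In animal 1 Kap alone stood at 16.5 TPM, while Nphs1 had only 1 count. Aqp2 was alike in both animals, with 13 and 12 counts. By the 25% measure, liver markers were higher in animal 1 for 6 of 7 genes and chromaffin cell markers for 5 of 9. X zone markers were higher in animal 1 for 2 of 3, and erythroid markers were higher in animal 2 for 4 of 5. The share of genes that differed, either way, was smaller in the remaining marker lists. It was 1 of 9 for zona fasciculata, 3 of 8 for zona glomerulosa and 1 of 7 for adipocyte markers. For fibroblast, endothelium and macrophage markers it was 1 of 6, 0 of 6 and 2 of 6. Of 12171 genes read by this measure, 21.6% differed. The remaining marker lists held only 6 to 9 genes each, so their counts were not read as above or below that share. The small 7SL RNAs held 33.1% of all TPM in animal 1 and 20.4% in animal 2, and TPM has a fixed sum. A pair of TPM values, here and below, therefore gives levels and not by itself a difference between the animals. Calls of a difference use scaled counts unless TPM is named. Aldh2, for example, stood at 650 and 814 TPM but at 0.969-fold in animal 2 over animal 1 by scaled counts.

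Akr1b7 was the most abundant of the 7 genes in both animals and both quantifications. It stood at 1029 TPM (a transcript level scaled for length and library) in the gene table of animal 1 and 1038 TPM in animal 2, a mean of 1033 ± 6.26 (SD, n = 2), from 42527 and 40505 counts. Both animals were high, and it ranked 9 and 17 among 21938 nuclear protein-coding genes. Relative to Cyp11a1, the side-chain cleavage enzyme, its TPM ratio was 0.413 in animal 1 and 0.452 in animal 2. The gene spans chr6:34412334-34423142 on the plus strand and has 1 annotated transcript of 10 exons and 1281 bases, so all of its level was protein-coding. A second quantification, a transcript table that the authors made from the reads and a transcript index, gave 1773 and 1496 TPM, a ratio to the gene table of 1.58, near the 1.64 that was the median over 6498 genes at 10 TPM or more.

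Of the other Akr1b genes, aldose reductase itself, Akr1b3 (chr6:34302434-34317478, minus strand), stood at 76.2 TPM in animal 1 and 80.6 TPM in animal 2, with a mean of 78.4 ± 3.10 (SD, n = 2). Akr1b8 (chr6:34354119-34368463, plus strand) stood at 78.3 and 92.7 TPM, with a mean of 85.5 ± 10.2. Akr1b10 (chr6:34384218-34396950, plus strand) was the lowest of the 4, at 42.03 and 58.0 TPM. Within each library Akr1b7 was 13.5 and 12.9 times the level of Akr1b3, 13.1 and 11.2 times that of Akr1b8, and 24.5 and 17.9 times that of Akr1b10. The ratio to Akr1b3 was 8.49 and 9.26 in the second quantification and 23.8 and 20.2 by protein-coding transcripts, and that to Akr1b10 was 34.8 and 37.1 by protein-coding transcripts. Akr1b7 thus held 84.0% and 81.8% of the summed TPM of the 4 genes, a mean of 82.9% ± 1.54 (SD, n = 2). In bulk tissue, more cells with the RNA and more RNA per cell cannot be told apart.

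**Figure D1:**
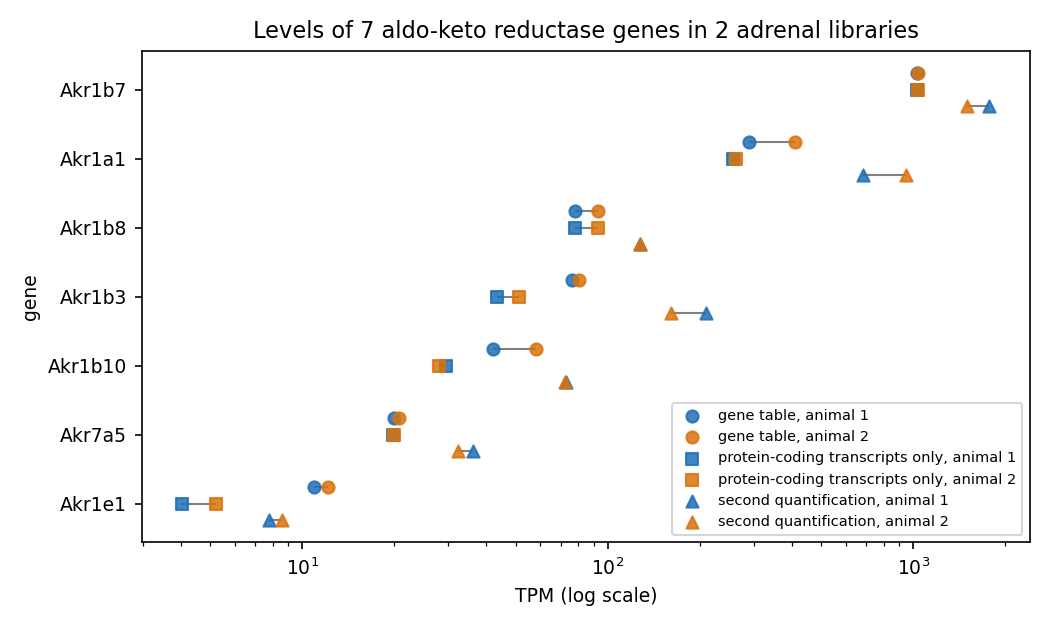
TPM (x axis, log scale) of each gene (y axis) in animal 1 (blue) and animal 2 (orange), from the gene table (circles), from protein-coding transcripts of the same quantification (squares) and from the second quantification (triangles), with a grey line between the animals. Akr1b7 lies at 1029 and 1038 TPM in the gene table, and Akr1e1, the lowest, at 10.9 and 12.2 TPM.

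The cluster spans 121 kb, with 36.6 kb between Akr1b3 and Akr1b8, 15.8 kb between Akr1b8 and Akr1b10 and 15.4 kb between Akr1b10 and Akr1b7. The nearest protein-coding genes on either side were low, Slc35b4, a nucleotide sugar transporter, at 9.20 and 8.67 TPM and Bpgm, which makes bisphosphoglycerate, at 7.26 and 7.53 TPM. All 4 Akr1b genes were above both neighbours in each animal. Inside the cluster the pseudogenes Gm13859 and Gm13858 had 8 and 8 counts, and 0 and 2 counts. Models on the opposite strand overlap at both ends: the antisense model Gm14546 spans Akr1b3, and the pseudogene Gm13857 overlaps the 3′ part of Akr1b7. Each was at 0 counts in both gene tables. In the second quantification Gm14546 had 2 and 5 counts and Gm13857 had 0 in both animals. Whether counting used strand was not given in the sources used here, so reads of either strand at these genes cannot be told apart.

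**Figure D2:**
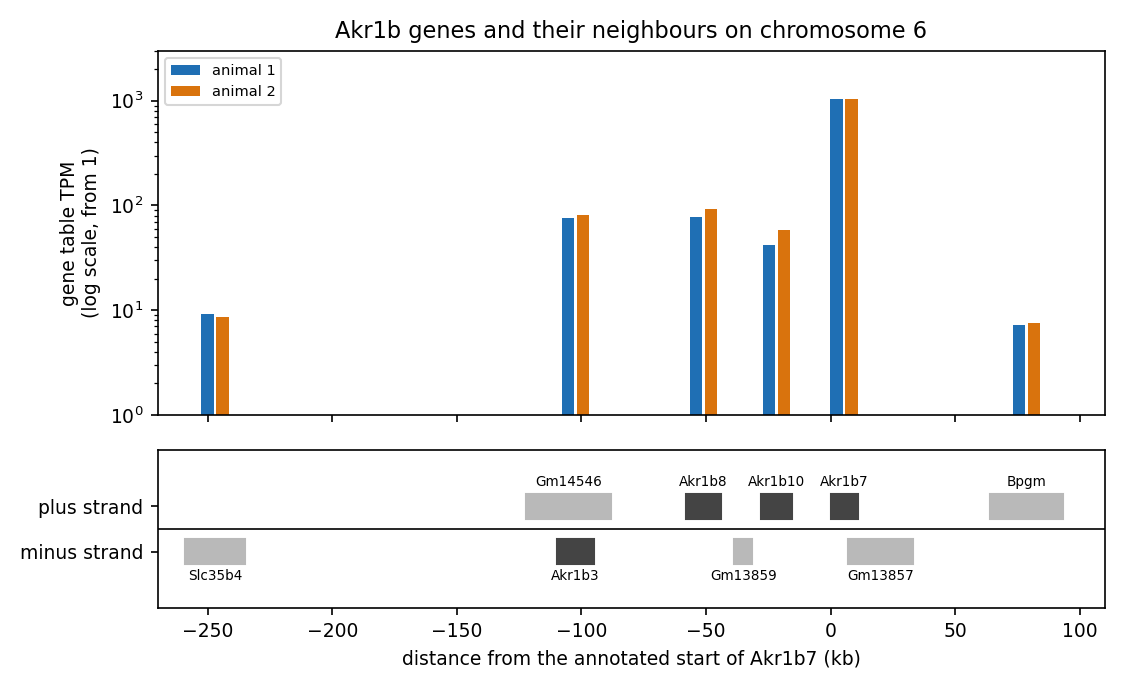
Upper panel: gene table TPM (y axis, log scale from 1) of the Akr1b genes and their nearest protein-coding neighbours in animal 1 (blue) and animal 2 (orange), placed by distance from the annotated start of Akr1b7 in kb (x axis). Lower panel: gene spans by strand, with Akr1b genes dark. Akr1b7 stands at 1029 and 1038 TPM, the other Akr1b genes between 42.03 and 92.7 TPM, and Slc35b4 and Bpgm below 10 TPM.

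Outside the cluster, Akr1a1 (chr4:116636510-116651680, minus strand) was the runner-up, at 291 TPM in animal 1 and 410 TPM in animal 2, with a mean of 350 ± 84.4 (SD, n = 2). Its animals were the furthest apart in TPM of the 7 genes, although its counts, 12330 and 13088, were close. Akr1b7 was 3.54 and 2.53 times its level, but 2.59 and 1.58 times in the second quantification, where Akr1a1 stood at 685 and 944 TPM. Akr7a5 (chr4:139310744-139318426, plus strand) stood at 20 and 20.7 TPM from 828 and 798 counts. Akr1e1 (chr13:4590750-4609174, minus strand) was the lowest, at 10.9 and 12.2 TPM from 547 and 650 counts. In the gene tables the order of mean TPM was Akr1b7, Akr1a1, Akr1b8, Akr1b3, Akr1b10, Akr7a5 and Akr1e1. Of the 6 pairs of neighbours in that order, 5 had ranges that did not overlap, and the ranges of Akr1b8 and Akr1b3 did overlap. In the second quantification Akr1b3, at 209 and 162 TPM, lay above Akr1b8, at 127 and 127 TPM. When only protein-coding transcripts were summed, Akr1b8 lay above Akr1b3 in both quantifications, at 78.2 and 92.7 TPM against 43.2 and 51.3 TPM in the first.

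The quantifications differed in which transcript of a gene the reads were given to. Akr1b7 has 1 transcript, and Akr1b8-201 and Akr7a5-201, both protein-coding, held at least 96.2% of their gene's TPM in each library. For Akr1b3 the protein-coding Akr1b3-201 held 55.4% and 63.0% of TPM, and the 554-base retained-intron model Akr1b3-204 held 42.04% and 35.1%. Akr1b3-204 has 2 exons at the 3′ end of the gene, and 489 of its bases are also exonic in Akr1b3-201. In the second quantification Akr1b3-204 led, with 54.0% and 52.2%. For Akr1e1 the order of quantifications was the opposite: the 412-base processed transcript Akr1e1-203 led the gene table with 55.2% and 57.3% of TPM, from 65.8 and 72.1 counts, and had 0 counts in the second quantification, where the protein-coding Akr1e1-201 held 93.0% and 87.8%. A transcript that is not protein-coding thus led in 1 of the 6 members with several transcripts in the first quantification, and did so in 8.05% of 5389 genes at 10 TPM.

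Akr1a1 and Akr1b10 were the members whose transcript shares differed most between the animals. The protein-coding Akr1a1-201 held 88.5% of Akr1a1 TPM in animal 1 and 64.1% in animal 2. The rest was mainly Akr1a1-202, a 412-base processed transcript of 2 exons at the 3′ end of the gene, of which 285 bases are exonic in Akr1a1-201 and 127 lie in its introns. Akr1a1-202 rested on 351 counts in animal 1 but 1500 in animal 2, and the scaled ratio was 4.22 (95% counting interval 3.76 to 4.76). The second quantification gave it 715 and 1843 counts, a ratio of 2.49, so animal 2 was higher in both. The effective length of Akr1a1 was 1213 bases in animal 1 and 967 in animal 2, past 1.2-fold as for 10.5% of 12171 genes, and its TPM differed by 1.41-fold while its counts differed by 1.05-fold. By protein-coding transcripts alone it stood at 257 and 263 TPM.

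For Akr1b10 the protein-coding Akr1b10-201 held 70.3% of TPM in animal 1 and 44.9% in animal 2. Akr1b10-203, a model annotated as a target of nonsense-mediated decay, held 18.03% and 44.2%, from 313 and 1000 counts, a ratio of 3.16 (2.78 to 3.60). All 1280 bases of Akr1b10-203 are exonic in Akr1b10-201. In the second quantification Akr1b10-203 held 3.87% and 3.90%, a count ratio of 1.11, so the difference between the animals was not seen there. By protein-coding transcripts alone Akr1b10 stood at 29.6 and 27.9 TPM, lower in animal 2. The share of the leading transcript differed by 20 percentage points or more between the animals for these 2 of the 6 genes with several transcripts, and for 8.51% of 5454 such genes at 10 TPM. In the first quantification none of the 6 changed its leading transcript between the animals, which 13.2% of those genes did. In the second, Akr1a1 did, led by Akr1a1-201 with 63.6% in animal 1 and by Akr1a1-202 with 60.01% in animal 2, as did 20.5% of 5447 genes. By the mean share of both animals, Akr1b3 and Akr1e1 had different leaders in the 2 quantifications, as had 27.7% of 5447 genes, and in animal 2 alone Akr1a1 had too.

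**Figure D3:**
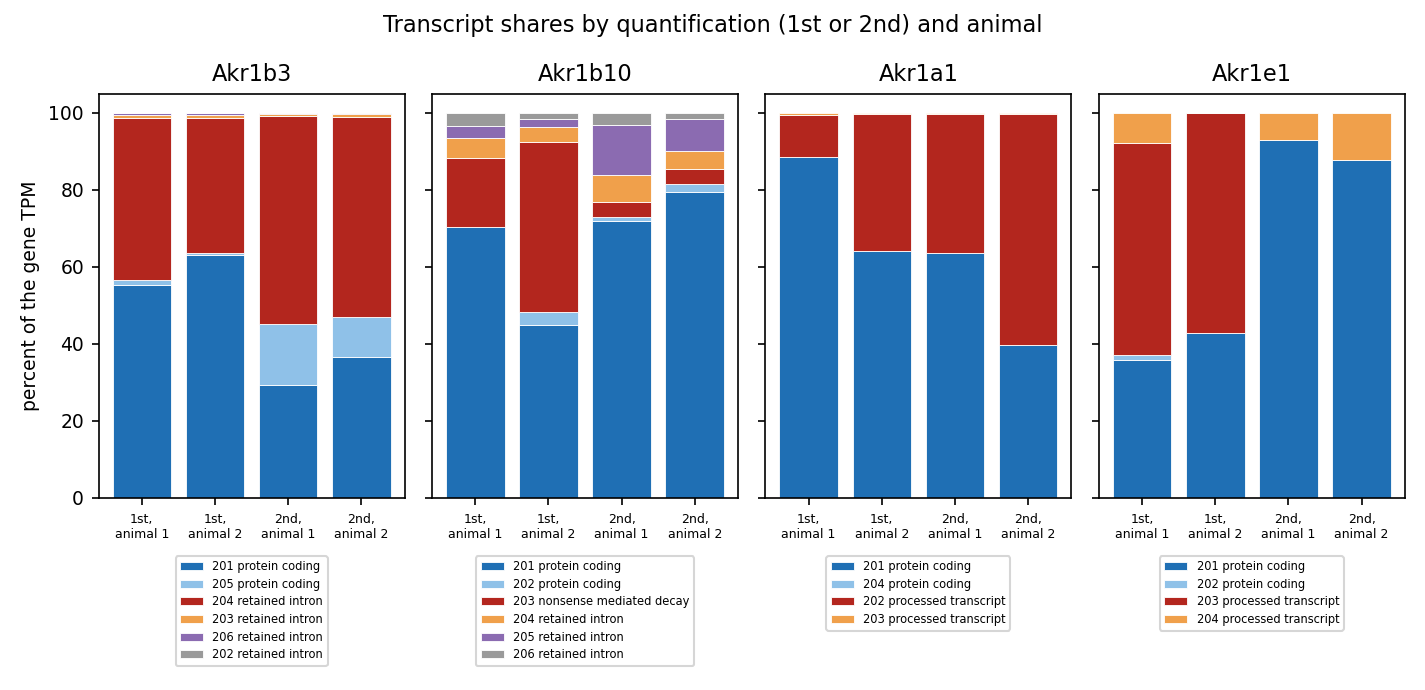
Percent of each gene's TPM (y axis) held by each annotated transcript, stacked, in animals 1 and 2 in the first and the second quantification (x axis), for the 4 members with several transcripts of appreciable share. Blue shades are protein-coding models and other colours are models with no annotated protein product or targets of nonsense-mediated decay. Akr1a1-202 takes a larger share in animal 2 in both quantifications, 11.1% against 35.4% and 36.1% against 60.01%, while Akr1b10-203 does so only in the first.

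Between the animals, expected counts scaled by TMM, a trimmed mean of ratios over genes, differed little for most members. Akr1b7 was 1.06-fold higher in animal 1 (95% counting interval 1.05 to 1.08). Akr7a5 was higher in animal 1 by 1.05-fold (0.951 to 1.16), an interval that includes no difference. The other 5 were higher in animal 2: Akr1a1 by 1.05-fold (1.02 to 1.08), Akr1b3 by 1.06-fold (1.00 to 1.12), Akr1b8 by 1.11-fold (1.06 to 1.16), Akr1e1 by 1.18-fold (1.05 to 1.32) and Akr1b10 by 1.27-fold (1.19 to 1.35). A gene was called past the fold where one animal was at least 25% above the other. Only Akr1b10 was, 1 of 7 members, beside 21.6% of 12171 genes with a mean of 100 counts (9.24% higher in animal 2 and 12.4% higher in animal 1). No member was past 1.5-fold or 2-fold, which 5.68% and 1.37% of those genes were. Its log2 ratio of 0.34 lay between the 5th and 95th percentiles of those genes, -0.49 and 0.43. In the second quantification Akr1b10 was 1.14-fold higher in animal 2 and no member was past the fold, beside 22.4% of genes. Akr1b3 was at 0.982-fold there, slightly lower in animal 2.

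The choice of scaling set the direction for some members. Spike-in scaling moved the median log2 ratio of all genes from -0.01 to 0.19, and all 7 members were then higher in animal 2, Akr1b7 by 1.09-fold and Akr7a5 by 1.10-fold. This scaling shifts every gene by the same amount, so the place of a gene relative to the median could not change. Akr1b7 at 0.12 and Akr7a5 at 0.14 on the log2 scale lay below that median. Akr1b10 at 0.55, Akr1e1 at 0.44, Akr1b8 at 0.35, Akr1b3 at 0.29 and Akr1a1 at 0.28 lay above it. By spike-ins 3 of 7 members, Akr1b10, Akr1e1 and Akr1b8, were past the fold, beside 33.7% of genes. By total counts none was, beside 23.2%, and by DESeq2 size factors Akr1b10 was, beside 21.4%. By TPM, whose median over all genes was 0.11, Akr1b7 was at 0.01, and Akr1a1 at 0.50 and Akr1b10 at 0.46 were past the fold, 2 of 7 members beside 32.5% of genes. The brown adipocyte, kidney, liver and chromaffin cell markers given above moved between the same libraries, and their part in the members' differences was not tested.

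**Figure D4:**
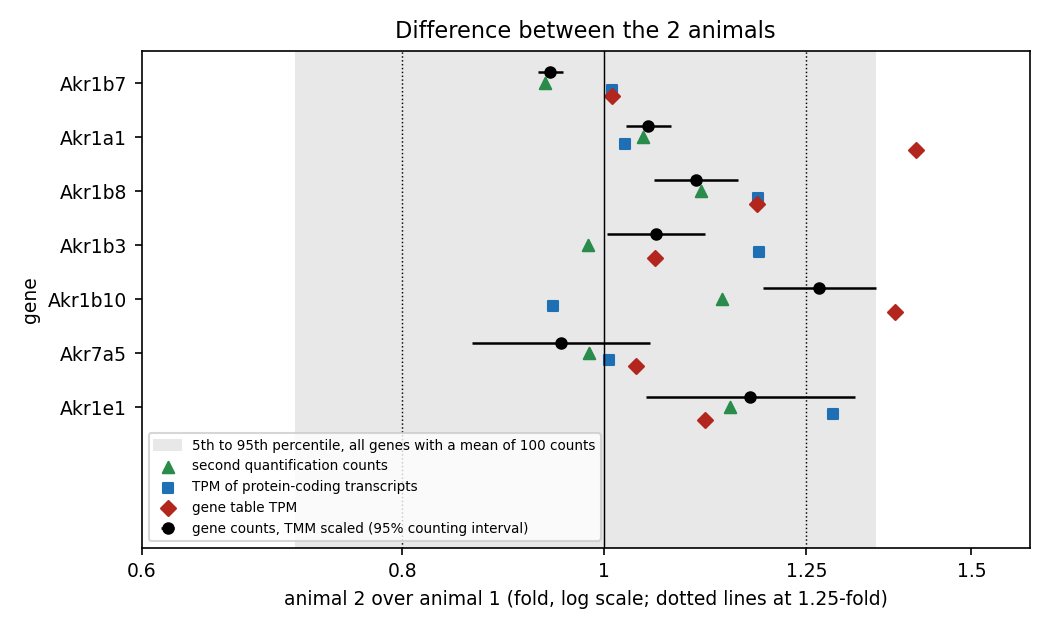
Level in animal 2 over animal 1 (x axis, fold on a log scale) for each gene (y axis): TMM-scaled gene counts with their 95% counting intervals (black), second quantification counts (green), TPM of protein-coding transcripts (blue) and gene table TPM (red). The grey band is the 5th to 95th percentile of all genes with a mean of 100 counts, and dotted lines mark the fold at which genes were called. The band is of scaled counts, and those of all 7 genes lie within it. TPM of Akr1a1 and Akr1b10, at 0.50 and 0.46 on the log2 scale, lies within the wider range of TPM ratios of those genes, -0.45 to 0.63, which is not drawn.

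The annotated transcript sequences of the members are shared with other genes to unequal degrees. Of the 31-base words in Akr1b7, 10.1% also occurred in transcripts of other genes, mainly Akr1b10 with 88, Gm15806 with 58 and Akr1b8 with 41, but none of its 75-base words did. Akr1b3 shared 10.8% of 31-base words and 8.32% of 75-base words, mainly with Gm6644, Gm6736 and Gm12138. Words were pooled over all annotated transcripts of a gene, which for Akr1b3 include retained-intron models of 5024 and 3254 bases. The percentages of these 2 genes are therefore not like for like. In number, Akr1b3 shared 917 of 8486 words of 31 bases and 727 of 8735 words of 75 bases. Akr1b7 shared 126 of 1251 and 0 of 1207. Gm6644, a processed pseudogene of Akr1b3 on chromosome 1, had 7.59 and 3.19 counts and 0 in the second quantification. The deposited posterior SD of the count was 24.5 and 27.6 for Akr1b3, 3.54 and 4.79 for Akr1b7 and 0 for Akr1a1, Akr1e1 and Akr7a5. It was 3.97 and 5.01 for Akr1b8 and 1.80 and 1.59 for Akr1b10, whose shared 75-base words were 0.422% and 0.167%. Of the 7 genes Akr1b3 had the highest SD in both animals.

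Genes that act with these enzymes were read from 10 lists, which held 117 genes besides the members. Of the 94 with a mean of 100 counts, 27 were past the fold (28.7%, beside 21.6% of all genes), of which 12 were higher in animal 2 and 15 in the other. With no count minimum 41 of 116 were, 35.3% beside 50.2% of 26370 genes with a count. The median log2 ratio of 17308 genes with a mean of 10 counts was -0.02. The most abundant and the lowest gene of a list are those by mean TPM. In the polyol pathway and fructose list, where Akr1b3 acts, 6 of 10 genes were past the fold, 3 in each direction, and the median was -0.11. Sord, sorbitol dehydrogenase, stood at 19.3 and 19.9 TPM, so the ratio of Akr1b3 to Sord was 3.95 and 4.06, and 6.22 and 5.86 in the second quantification. The most abundant were the glycolytic Aldoa at 672 and 1008 TPM, Gpi1 at 106 and 193 TPM and the hexokinase Hk2 at 39.2 and 38.1 TPM, and the lowest was the fructose transporter Slc2a5 at 2.58 and 3.42 TPM.

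The osmotic list, which holds the factor Nfat5 and its targets, had 3 of 7 genes past the fold, all higher in animal 2 (Nfat5, Hspa4l and Slc5a3), and a median of 0.13. Its most abundant members were the taurine transporter Slc6a6 at 162 and 217 TPM, the amino acid transporter Slc38a2 at 58.3 and 72.2 TPM and the kinase Sgk1 at 44.6 and 53.3 TPM, and the betaine transporter Slc6a12 was lowest at 0.27 and 0.33 TPM. Akr1b3 itself, at 1.06-fold, was not past the fold. In the corticotropin, cAMP and Nr5a1 list, where Akr1b7 belongs, 2 of 11 genes were past the fold, both higher in animal 2, and the median was 0.08. They were Mc2r, the corticotropin receptor, at 83.7 and 122 TPM (1.36-fold by counts), and Nr0b2, a nuclear receptor that represses others, at 13.5 and 22.7 TPM (1.57-fold). Mrap, which carries the corticotropin receptor to the membrane, stood at 377 and 404 TPM, the nuclear receptor Nr5a1 at 250 and 265 TPM and Cebpb at 138 and 162 TPM, and Nr5a2 was lowest at 0.26 and 0.46 TPM.

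In the prostaglandin list, 3 of 12 genes were past the fold, Pla2g4a higher in animal 2 and Ptgr1 and Slco2a1 in animal 1. Its leaders were the synthase cochaperone Ptges3 at 62.7 and 67.8 TPM, Cbr1 at 26.8 and 32.3 TPM and Ptgr2 at 23.3 and 26.04 TPM. Ptgfr, the receptor of prostaglandin F, was lowest by the mean at 0.32 and 0.17 TPM from 37 and 12 counts. In animal 1 Ptger1, Ptger2 and Ptger4 were lower than Ptgfr. In the ascorbate list, 1 of 9 genes, Rgn, was past the fold, higher in animal 1. After Akr1a1 its most abundant members were the ascorbate transporter Slc23a2 at 59.7 and 71.4 TPM and Ugdh, which makes UDP-glucuronate, at 24.2 and 28.6 TPM, and the transporter Slc23a1 was lowest at 0.2 and 0.1 TPM. Gulo, the last enzyme of ascorbate synthesis, stood at 6.21 and 5.60 TPM, which was 1.19-fold higher in animal 1 by counts. In the GABA list, 1 of 4 genes, Gad1, was past the fold, higher in animal 1. Abat, GABA transaminase, stood at 34.2 and 38.5 TPM, Akr7a5 at 20 and 20.7 TPM and Aldh5a1, which oxidises succinic semialdehyde, at 6.43 and 5.61 TPM, and Gad2 was at 0 counts in both.

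Among other enzymes that clear aldehydes and ketones, 2 of 18 genes, Aldh1a1 and Glo1, were past the fold, both higher in animal 1. Aldh2, mitochondrial aldehyde dehydrogenase, led at 650 and 814 TPM, followed by Aldh1a1 at 107 and 87.0 TPM and Aldh6a1 at 63.9 and 73.4 TPM, and Cbr3 was lowest at 2.35 and 2.15 TPM. Of the genes that supply NADPH, 3 of 12 were past the fold, Tkt and Me3 higher in animal 2 and Nnt in animal 1, with Tkt, a transketolase, at 365 and 519 TPM, malic enzyme Me1 at 439 and 422 TPM and Idh1 at 251 and 240 TPM, and Me2 lowest at 7.34 and 7.10 TPM. The list of Nfe2l2, the factor of the antioxidant response, and its targets had 4 of 13 past the fold, Tkt and Hmox1 higher in animal 2 and Txnrd1 and Gclm in animal 1. Tkt and Me1 led it too, followed by the transaldolase Taldo1 at 224 and 222 TPM, and Slc7a11, the cystine transporter, was lowest at 0.28 and 0.44 TPM.

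**Figure D5:**
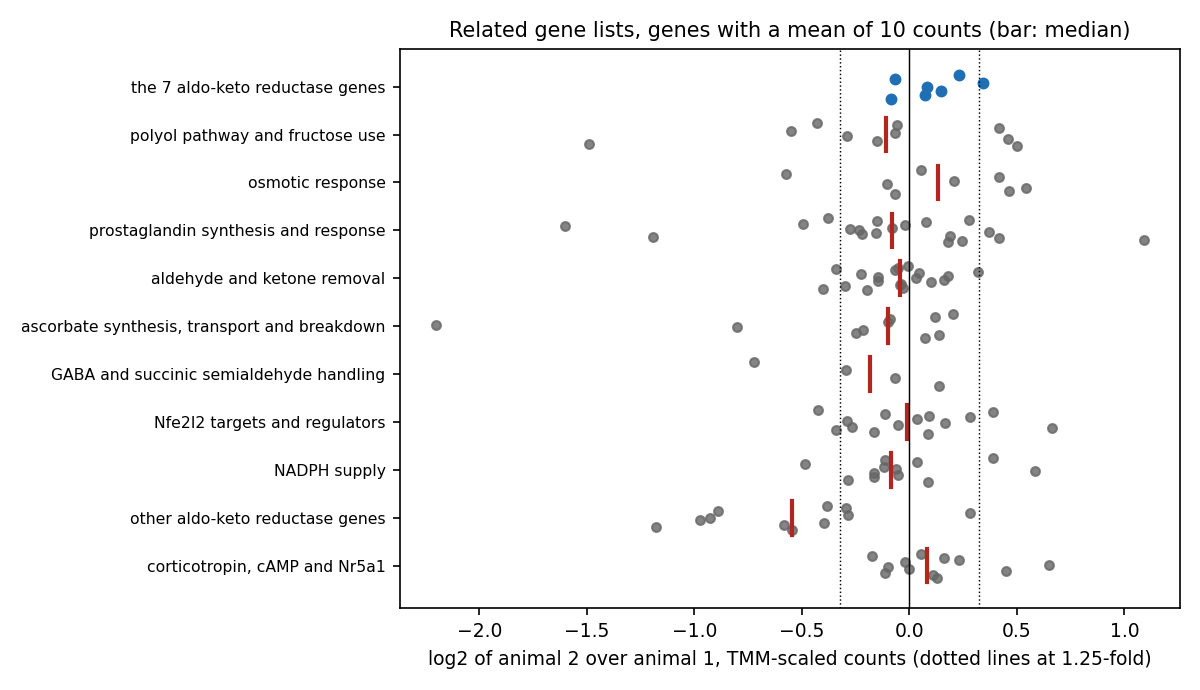
Log2 ratio of animal 2 over animal 1 from TMM-scaled counts (x axis) for the 7 genes (blue) and for each gene with a mean of 10 counts in the 10 related lists (grey, y axis), with the list median as a red bar and the calling fold as dotted lines. The 7 genes lie between -0.09 and 0.34, and the medians of 9 lists lie between -0.18 and 0.13, with that of the other aldo-keto reductase genes at -0.55.

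The other aldo-keto reductase genes had 3 of 6 past the fold, all higher in animal 1 (Akr1c18, Akr1c13 and Kcnab3), and 10 of 11 below 0 with a median of -0.55. The most abundant were Akr1c18, which inactivates progesterone and marks the X zone of the female mouse adrenal, at 2320 and 1659 TPM, the steroid reductase Akr1d1 at 644 and 835 TPM, and Akr1cl at 384 and 342 TPM. Akr1c18 was 2.26 and 1.599 times the level of Akr1b7, and 1.499-fold higher in animal 1 by counts. X zone markers, among which it is counted, were higher in animal 1 for 2 of 3 genes, and their part in that difference was not tested. Akr1c13 stood at 13.3 and 8.69 TPM, and the other Akr genes, Akr1c6, Akr1c14, Akr1c20, Akr1c19, Akr1c12 and Akr1c21, each below 1.3 TPM, Akr1c21 with 1 and 0 counts. The protein-coding genes nearest to Akr1b7 in level over both libraries were Sparc, Rpl41, Tpt1, Mgst1 and Fth1, at distances of 0.17 to 0.31 on the scale of log2 of TPM plus 1, which over 2 libraries says only that their levels were similar.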

How the data were processed

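Total RNA-seq of 2 adrenal libraries was analysed from deposited tables. All tables used mm10 and GENCODE M21, per the deposited file listings. Aligner, versions and settings are not given in the sources used here. Expected counts per gene and transcript were deposited in columns named as RSEM writes them, and estimated counts in a second transcript table with kallisto column names. The deposited TPM values have a fixed sum per file. The share of each transcript in its gene, in percent, and a score, the posterior SD of the count, are also the authors' values, per the file headers. A deposited interval of TPM (unit signal) was read but not printed.

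Symbols were joined by gene identifier. The 26345 rows that name no gene, 96 of them ERCC spike-ins, held 0.909% and 0.76% of counts and stayed out of library sizes and ratios. Expected counts were scaled by edgeR 4.0.16 TMM factors (1.02 and 0.981, from counts rounded to whole numbers), and log2 ratios used a prior of 0.5 counts. Intervals are 95% Clopper-Pearson intervals of counting error. A gene with a mean of 100 counts was called past the fold where one animal was at least 25% above the other, with no test, and read against all genes. Related lists used a mean of 10 counts for medians. Alternatives were DESeq2 1.42.0 size factors, total counts, spike-ins, TPM, the second quantification and other folds and minimums. The steps were tested on simulated data. Named genes are the 7 members, all Akr genes, the neighbours on chromosome 6, the 5 genes nearest to Akr1b7 in level, and per list the 3 highest, the lowest and any past 2-fold, not all of which are reported here. Sord, Gulo, Ptger1, Ptger2, Ptger4 and list genes named only as past the fold were named after their values were seen. The members and lists were chosen with earlier results of these data known. Promoters were matched by symbol to RefSeq (GRCm38.p6).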

Additional observations from a re-analysis of the deposited data

How the results depend on the processing

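No paired analysis was possible because there is 1 group. The count of members past the fold (25%) was 1 with TMM factors or DESeq2 size factors. It was 0 by total counts, 3 by spike-ins, 2 by TPM, 0 in the second quantification, 0 at 1.5-fold and 0 at 2-fold. With no count minimum it was also 1, but this could not change because all 7 members had a mean of at least 100 counts. The shares of all genes past the fold were 21.6% with TMM, 23.2% by total counts, 33.7% by spike-ins, 32.5% by TPM, 22.4% in the second quantification, 21.4% with DESeq2 size factors, 50.2% with no count minimum, 5.68% at 1.5-fold and 1.37% at 2-fold. The Akr1b7 share of the 4 Akr1b genes, 82.9%, was 80.9% in the second quantification and 86.5% by protein-coding transcripts only, an alternative chosen after seeing the data, and ran from 81.8% to 84.0% with each library left out. By TPM of protein-coding transcripts, also added later, the log2 ratio of Akr1b10 turned from 0.34 to -0.081. The list genes past the fold numbered 41 of 116 (35.3%) with no count minimum against 27 of 94 (28.7%). Ratios need both libraries, so none could be made with 1 left out. With 2 libraries, spread within the group is poorly known, and Akr1e1, with 547 and 650 counts, has the widest counting interval of the 7 genes. The second quantification swapped Akr1b3 and Akr1b8 in the order of levels. By mean share, 6 of 7 leading transcripts were protein-coding in each quantification, but the exception was Akr1e1-203 in the first and Akr1b3-204 in the second, where Akr1a1-202 also led in animal 2. The causes of these shifts were not tested.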
